A study of Mus musculus with 319 samples.

Results

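The cells described here were thymic tuft cells that had reads of many bitter taste receptor genes at once. They were chosen by the number of Tas2r genes with at least 1 read in a cell, out of 35 entries of the gene table named Tas2r and a number, and 10 or more such genes made a cell a member. Of 301 cells kept from 314 wells with 1 sorted cell each, 69 (22.9%) were members. They were set against the 43.5% of kept cells with 3 to 9 Tas2r genes, called comparison cells. The other 33.6%, with 0 to 2 such genes, are given beside them. To be kept, a cell needed 10000 gene reads without spike-ins and 1000 detected genes, and no more than 20% of its reads could come from mitochondrially encoded genes.

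The data are Smart-seq2 libraries, full-length copies of polyadenylated RNA without molecular identifiers, each from 1 sorted cell of pooled naive thymi. All mice carried the Flare25 reporter allele of Il25 in the form Flare25/Flare25, which marks cells that make this epithelial cytokine, and were of the strain C57BL/6.Il25 at 6 weeks of age with sex labelled as mixed. A Flare25+ cell of the sort was also EPCAM+ and MHCIIlo, and it was CD45-, CD11c- and UVBlue-. There were 3 sets without a further mutation, called wild type (WT) here, namely June5, June29 and WT batch 2. The fourth set, also in batch 2, was Flare25/Flare25 Aire-/- in the strain C57BL/6.Il25.Aire, 1 of its samples being labelled 5 weeks old. The labels name no animals, so each set counts as 1 pool and any p-value covers only the spread between the 4 pools, which may be technical.

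Bitter taste begins when a compound binds a Tas2r protein, a G protein-coupled receptor of the cell surface. In taste cells the receptor activates the G protein gustducin, built from the alpha subunit Gnat3 with beta and gamma subunits such as Gnb3 and Gng13, and phospholipase Plcb2 then makes inositol trisphosphate, which opens a calcium store through the receptor Itpr3 so that the channel Trpm5 depolarises the cell. Tuft cells are chemosensory epithelial cells that use much of this pathway in the gut, airways and thymus, and in the thymic medulla they are known for making Il25 and for a wide set of bitter receptors.

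Members were found in each set. They made up 8 of 29 cells in June5 (27.6%, exact Clopper-Pearson 95% interval 12.7 to 47.2), 14 of 87 in June29 (16.1%, 9.09 to 25.5), 21 of 89 in WT batch 2 (23.6%, 15.2 to 33.8) and 26 of 96 in the Aire-/- set (27.1%, 18.5 to 37.1). The intervals cover counting error only, and all 4 overlap. The number of Tas2r genes per cell ran without a break through the threshold, with 8 cells at 9 genes and 9 cells at 10. Just below the threshold the numbers dipped, with 17 cells at 7 genes and 5 at 8, and 10 cells had 11. Membership is therefore a range of a count, and whether the members form a separate type was not tested. The comparison cells numbered 13, 49, 29 and 40 in the same order. The median member had 16 Tas2r genes in June29 and 14 in each of the other 3 sets, and 24 was the highest number in any cell. Tas2r reads summed over members came to 4764, 5899, 4786 and 3453 CPM (reads scaled to the same total of gene reads in every sample) in June5, June29, WT batch 2 and the Aire-/- set, against 545.7, 799.6, 828.5 and 458.9 CPM over comparison cells. These are values the cells were selected on and are given as a description.

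**Figure D1:**
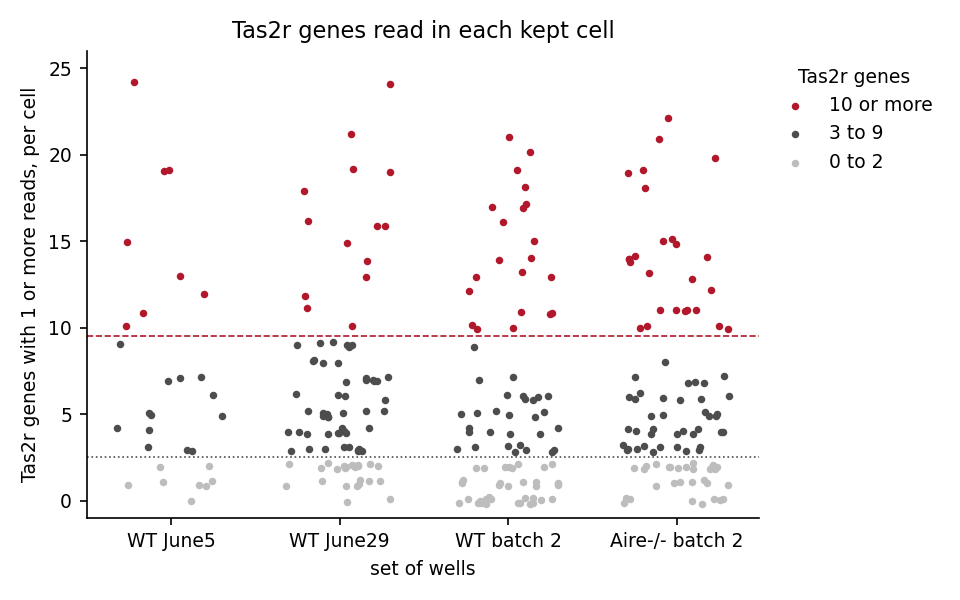
Number of Tas2r genes with at least 1 read per cell (vertical axis) in each set, with 1 point per kept cell, slightly scattered, coloured by 0 to 2, 3 to 9 and 10 or more genes, and lines at the class borders. The points run through the upper border, with 8 cells at 9 genes and 9 at 10, and the highest cells have 24.

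By their markers the members were tuft cells. Each of the 34 core tuft genes with reads was positive in some member, where positive means 5 or more reads in a cell, and the median member was positive for 26, 26.5, 25 and 25.5 of them in June5, June29, WT batch 2 and the Aire-/- set. Trpm5 and the epithelial adhesion gene Epcam were positive in 100% of members. Of the markers of haematopoietic cells, 7 of 11 for thymocytes, 7 of 9 for dendritic cells or macrophages and 3 of 7 for B cells had no positive member. Of those of other thymic epithelium, this was so for 2 of 8 for Aire-expressing medullary cells, 0 of 9 for mTEC low, 1 of 8 for cortical, 2 of 8 for microfold-like and 0 of 8 for ciliated cells, so most of these had some positive member. At least 2 markers of 1 of the haematopoietic lists were found in 16 of 69 members (23.2%) and 27 comparison cells (20.6%), and in June29 in 7 of 14 against 13 of 49. Of these markers Cd79b, a B cell receptor chain, was positive in 55.1% of members and 51.9% of comparison cells. Aire, the targeted gene, was at 13.4, 0.094 and 9.83 CPM in WT members and at 101.4 CPM in members of the Aire-/- set, so its summed reads do not check that label, and the deleted part of the gene is not given in the sources used here.

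Depth and quality differed between members and comparison cells within sets, in no single direction. Median gene reads were 595950.5 against 539655 in June5, 1506640 against 1125469 in June29, 527257 against 714423 in WT batch 2 and 629145 against 625466.5 in the Aire-/- set. With each cell thinned to 231697 reads, the median number of genes was 4144 against 4880, 4474 against 3458, 3795 against 3595 and 4469 against 4076. The mitochondrial share had medians of 9.19% against 3.85%, 4.10% against 10.4%, 3.98% against 3.49% and 3.08% against 3.42%. Median gene reads of members were thus larger in June5 and June29, nearly equal in the Aire-/- set and smaller in WT batch 2. The calls described below moved with depth. The limma fit, which called 35 genes higher and 7 lower, called 25 and 7 with thinned reads. In cells at or above the median depth of their set, which are fewer cells, it called 1 and 0. The part of the mitochondrial share was not tested. No doublet caller was run, and 1 member and 1 comparison cell had reads of both Xist and Y-linked genes.

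Members and comparison cells were compared on 2 measures of each gene, with the set as a block. When reads were pooled within each set and class and tested by edgeR's quasi-likelihood test, 0 of 13595 genes were higher and 0 lower (0% in each direction) at a Benjamini-Hochberg adjusted p under 0.05, and 700 genes (5.15%) had an unadjusted p under 0.05. DESeq2 on the same sums called 216 of 13067 genes higher (1.65%) and 389 lower (2.98%). Sums of this kind can be carried by a few cells, so the second measure gave each cell equal weight: the level of a gene in a set is the mean over its cells of log2(CPM + 1), and a difference is that of members minus comparison cells, averaged over the 4 sets. limma on these levels, a test added after the data were seen, called 35 of 13595 genes higher (0.257%) and 7 lower (0.0515%) in members. The median difference over all genes tested was 0.13, and 63.7% of them had a positive difference.

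The limma calls are the ones described below, and each of the 42 had the same sign in edgeR and DESeq2. Of the 35 higher genes 29 had an unadjusted edgeR p under 0.05 and 26 were called by DESeq2, and of the 7 lower genes 6 and 6. In all 42 the 4 member sets lay to one side of the 4 comparison sets without overlap, which was so for 541 of 13595 genes in the higher direction (3.98%) and for 1.1% in the lower. The 42 were picked by limma on these same levels, and edgeR and DESeq2 used the same reads. The shared signs and the lack of overlap are therefore not independent evidence. The number called moved with the sets used. It was 69 higher and 10 lower without June5, 17 and 8 without June29, 10 and 1 without WT batch 2, and 11 and 3 without the Aire-/- set. With 4 pairs of pools, an exact two-sided permutation test of a single gene cannot go below a p of 1 in 8.

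**Figure D2:**
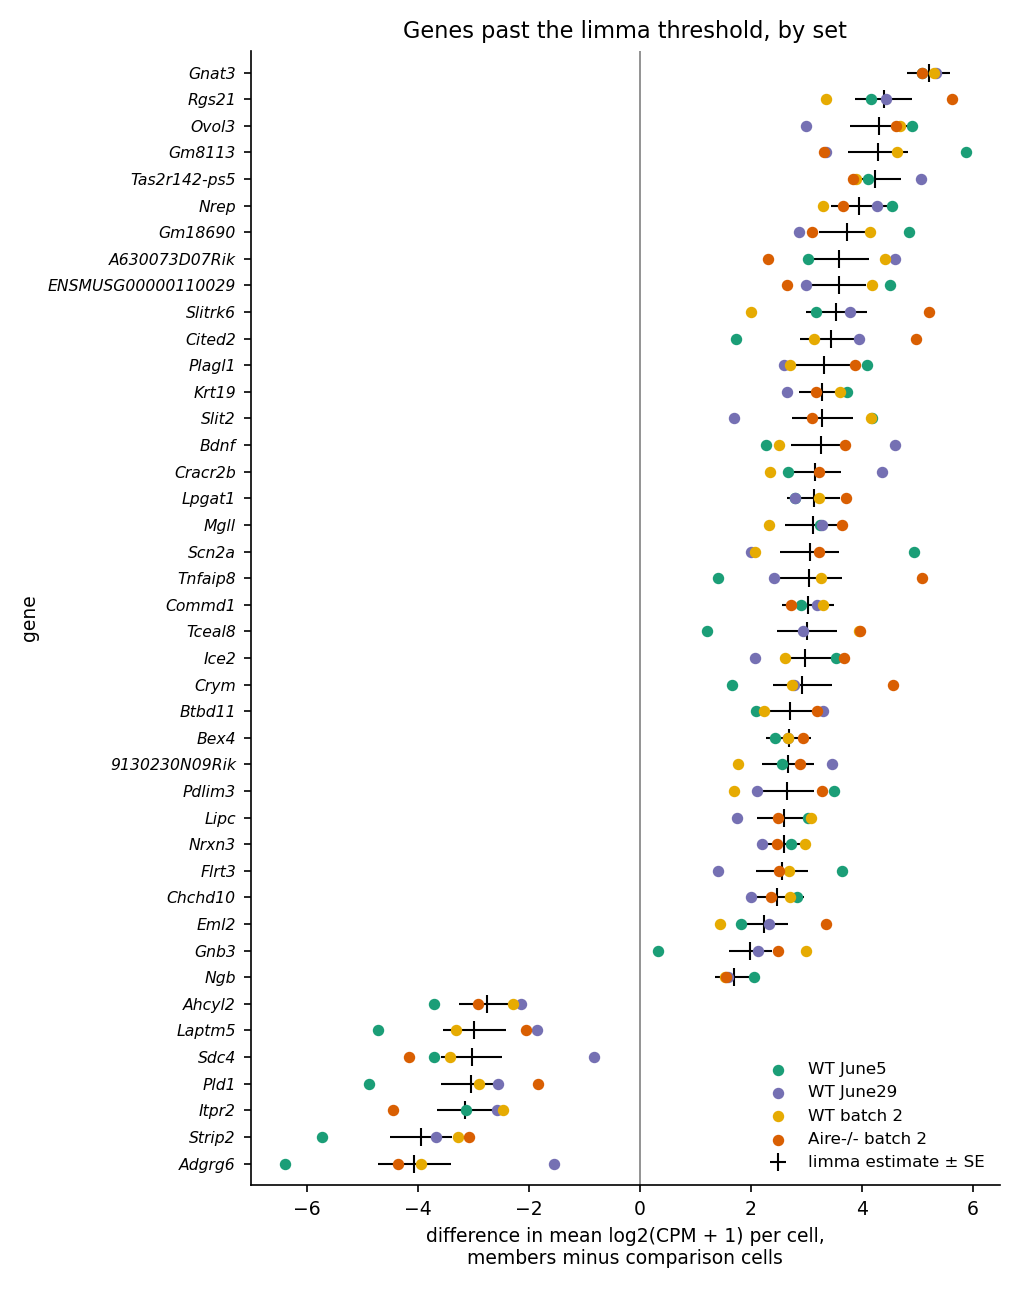
Difference in mean log2(CPM + 1) per cell, members minus comparison cells, for the genes called by limma, with 1 coloured point per set and the limma estimate ± SE in black. For the 35 genes called higher the points of all 4 sets lie above 0, and for the 7 called lower they lie below 0.

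Gnat3, the alpha subunit of gustducin (chr5:17962549-18019834, GRCm38), had the largest difference of the 13595 genes tested. It was positive in 69 of 69 members (100%), in 65.7% of comparison cells and in 44.6% of cells with 0 to 2 Tas2r genes. The no-cell well that was analysed had 10 reads of Gnat3, so it too met the mark for positive. The median member of June5 had 1728 CPM, that of June29 2614, that of WT batch 2 4242 and that of the Aire-/- set 3776, and the median comparison cell 52.5, 33.1, 244 and 354 CPM. On the log2(CPM + 1) scale the member sets stood between 10.9 and 11.78 and the comparison sets between 5.81 and 6.48, without overlap, a difference of 5.20 (SE 0.39, n = 4 sets, limma adjusted p = 0.000026). In the summed reads the log2 fold was 2.19 (SE 0.19, edgeR unadjusted p = 4.6e-05, adjusted p = 0.627), so the difference was smaller there and not called. Its limma call held in 17 of the 18 alternative settings run, the exception being the fit with no filter on low counts (adjusted p = 0.0612).

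**Figure D3:**
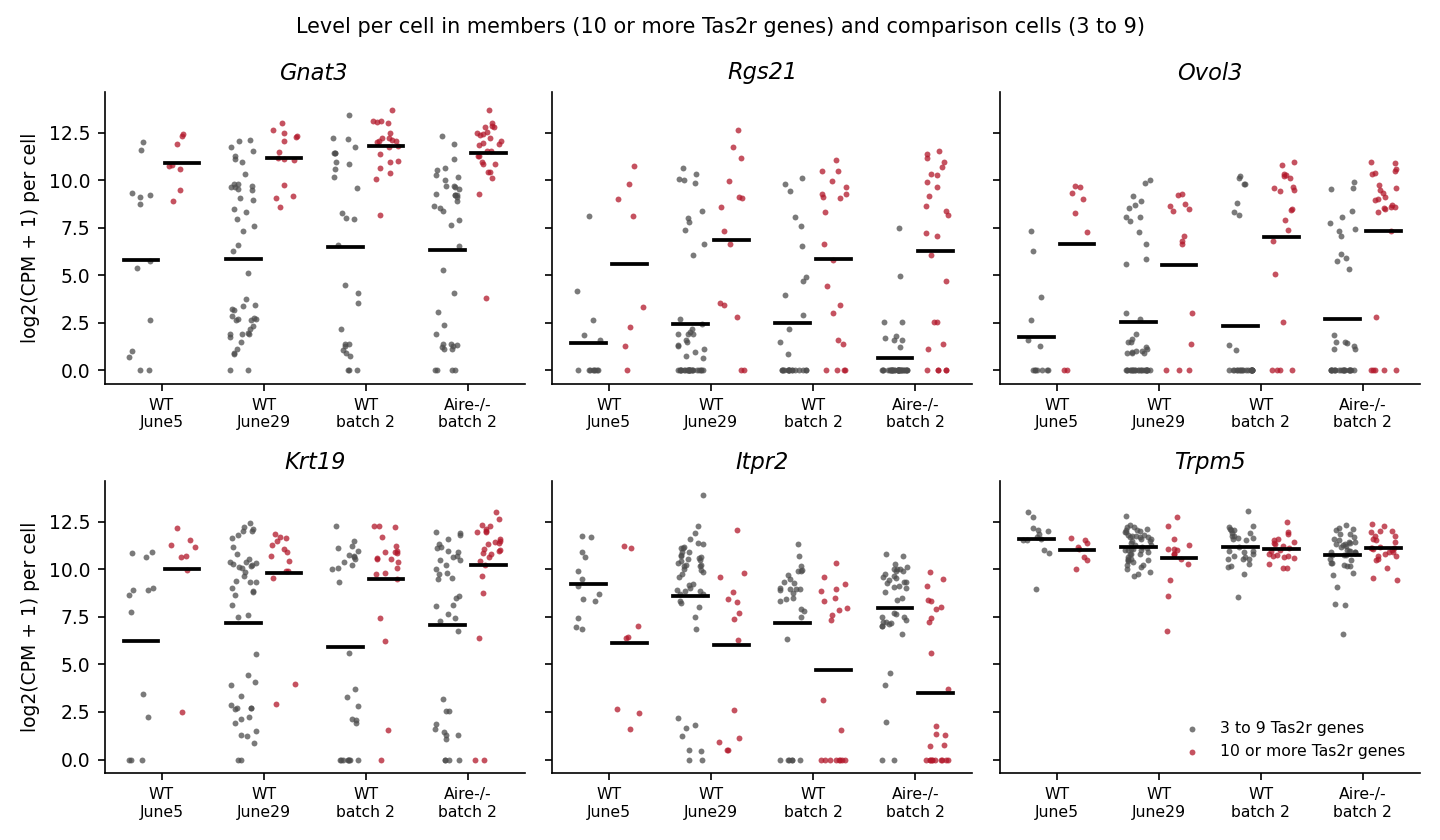
Level per cell, log2(CPM + 1), of Gnat3, Rgs21, Ovol3, Krt19, Itpr2 and Trpm5 in comparison cells (grey) and members (red) of each set, with 1 point per cell and a bar at the mean. The member means of Gnat3 lie between 10.9 and 11.78 and the comparison means between 5.81 and 6.48, those of Itpr2 lie in the opposite order, and those of Trpm5 lie close together.

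Rgs21, a regulator of G protein signalling known from taste cells (chr1:144516648-144567667, GRCm38), also had higher means in the member sets than in the comparison sets, at a lower level than Gnat3. Single cells of the classes overlapped. It was positive in 4 of 8, 12 of 14, 15 of 21 and 17 of 26 members of the sets, and in 2 of 13, 13 of 49, 9 of 29 and 2 of 40 comparison cells. Member levels were 5.57, 6.86, 5.85 and 6.26 against 1.41, 2.43, 2.5 and 0.64 in log2(CPM + 1), and the difference was 4.39 (SE 0.52, n = 4 sets, limma adjusted p = 0.00262). The edgeR log2 fold was 3.65 (SE 1.05, adjusted p = 0.952). Rgs21 was a marker given for these cells from earlier results on the same data, so its difference is not independent evidence. Of the 16 tested members of the RGS family it was the only one called, beside 0.257% of all genes called higher. The list had 10 positive differences (62.5%, against 63.7% over all genes) and a median of 0.17, against 0.13. Rgs13, which is abundant in tuft cells, differed by -0.38 (SE 0.49, adjusted p = 0.835), and Rgs2, which acts on Gq signalling, by 0.98 (SE 0.42, adjusted p = 0.426).

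Because Gnat3 and Rgs21 led the difference, their start sites are shown, as 250 bases before and 50 after the start of the gene in RefSeq on GRCm38.p6, both found by symbol. The motif searched was the octamer bound by POU factors such as Pou2f3, on which tuft cells depend, spelled ATGCAAAT or, on the other strand, ATTTGCAT, and a match is in capitals. The Gnat3 window lies at chr5:17962320-17962619 on the plus strand and the Rgs21 window at chr1:144567618-144567917 on the minus strand, each written 5′ to 3′ along the gene.
Gnat3: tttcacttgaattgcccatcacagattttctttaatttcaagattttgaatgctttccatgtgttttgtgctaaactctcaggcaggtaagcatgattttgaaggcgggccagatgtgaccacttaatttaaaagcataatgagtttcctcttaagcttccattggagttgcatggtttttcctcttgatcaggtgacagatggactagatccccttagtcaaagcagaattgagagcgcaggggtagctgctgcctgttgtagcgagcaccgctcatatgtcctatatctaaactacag
Rgs21: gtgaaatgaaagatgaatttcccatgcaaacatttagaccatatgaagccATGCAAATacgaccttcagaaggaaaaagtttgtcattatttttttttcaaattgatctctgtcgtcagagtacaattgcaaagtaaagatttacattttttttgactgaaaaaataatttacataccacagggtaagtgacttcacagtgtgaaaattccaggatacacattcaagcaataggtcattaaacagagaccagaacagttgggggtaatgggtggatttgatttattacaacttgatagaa
The Gnat3 window held 0 octamers. The Rgs21 window held 1, whose first base lies 200 bases before the start. Of all 32851 RefSeq windows of this length, 570 (1.74%) held the octamer on either strand, and a match is a description of these letters only.

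Among the taste transduction genes, 27 of 33 could be tested, of which 4 were higher in members (Gnat3, Rgs21, Gnb3 and Scn2a) and 1 was lower (Itpr2). Over all genes 0.257% were called higher. The list had 20 positive differences of 27 (74.1%, against 63.7% over all genes) and a median of 0.58, against 0.13. In 9 of the 27 the member sets lay wholly above the comparison sets, which was so for 3.98% of all genes. The filter on low counts could keep a gene through its reads in members, so these values of the list are a description only. Gnb3, the beta subunit that pairs with Gnat3, had median levels of 5801, 7531, 8096 and 6525 CPM in members and 2718, 2322, 1823 and 1841 CPM in comparison cells. It was positive in 100% of members and 93.9% of comparison cells, and its difference was 1.99 (SE 0.39, limma adjusted p = 0.0484), with June5 closest at 11.6 against 11.27. Scn2a, a voltage-gated sodium channel of taste cells, was positive in 5 of 8, 5 of 14, 9 of 21 and 12 of 26 members and in 0 of 13, 5 of 49, 5 of 29 and 0 of 40 comparison cells, with a difference of 3.06 (SE 0.53, adjusted p = 0.0217). The Gnb3 and Scn2a calls were both lost in each leave-one-out that dropped June29, WT batch 2 or the Aire-/- set, and the Gnb3 call also without the cells with haematopoietic markers.

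The genes next in the pathway did not pass. Trpm5 had a median of 2214, 1925, 2085 and 2229 CPM in members and 3327, 2294, 2339 and 1998 CPM in comparison cells, was positive in 100% of both, and differed by -0.23 (SE 0.31, limma adjusted p = 0.84). Plcb2 differed by 0.51 (adjusted p = 0.688) and Gng13 by 0.38. Itpr3, the inositol trisphosphate receptor of taste cells, was positive in 50.7% of members against 19.9% of comparison cells and differed by 2.58 (adjusted p = 0.0868). Tas1r1, a subunit of the umami receptor, was positive in 44.9% against 13.7% and differed by 2.35 (adjusted p = 0.0625). For the pore subunits of the channel that releases ATP from taste cells the differences were 1.21 for Calhm1 (adjusted p = 0.13) and 1.77 for Calhm3, neither of which passed. Plcb2, Gng13, Itpr3, Tas1r1, Calhm1 and Calhm3 are named here after their values were seen.

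Itpr2, another inositol trisphosphate receptor, was the taste list gene that was lower. Its median was 84.4, 187.9, 162.8 and 1.497 CPM in members of June5, June29, WT batch 2 and the Aire-/- set, and 558, 988, 482 and 486 CPM in comparison cells. The levels were 6.12, 6.02, 4.73 and 3.5 against 9.25, 8.58, 7.19 and 7.96, and did not overlap. It was positive in 55.1% of members, 87.02% of comparison cells and 86.1% of cells with 0 to 2 Tas2r genes, and the difference was -3.15 (SE 0.50, limma adjusted p = 0.0129). The Itpr2 call held in 13 of 18 alternatives (limma adjusted p up to 0.482). It was lost without WT batch 2 or the Aire-/- set and without cells with haematopoietic markers. It was also lost in cells at or above the median depth of their set and with no filter on low counts. Of the 2 receptors of this family given here, the difference of Itpr2 passed the test and that of Itpr3, of opposite sign, did not.

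**Figure D4:**
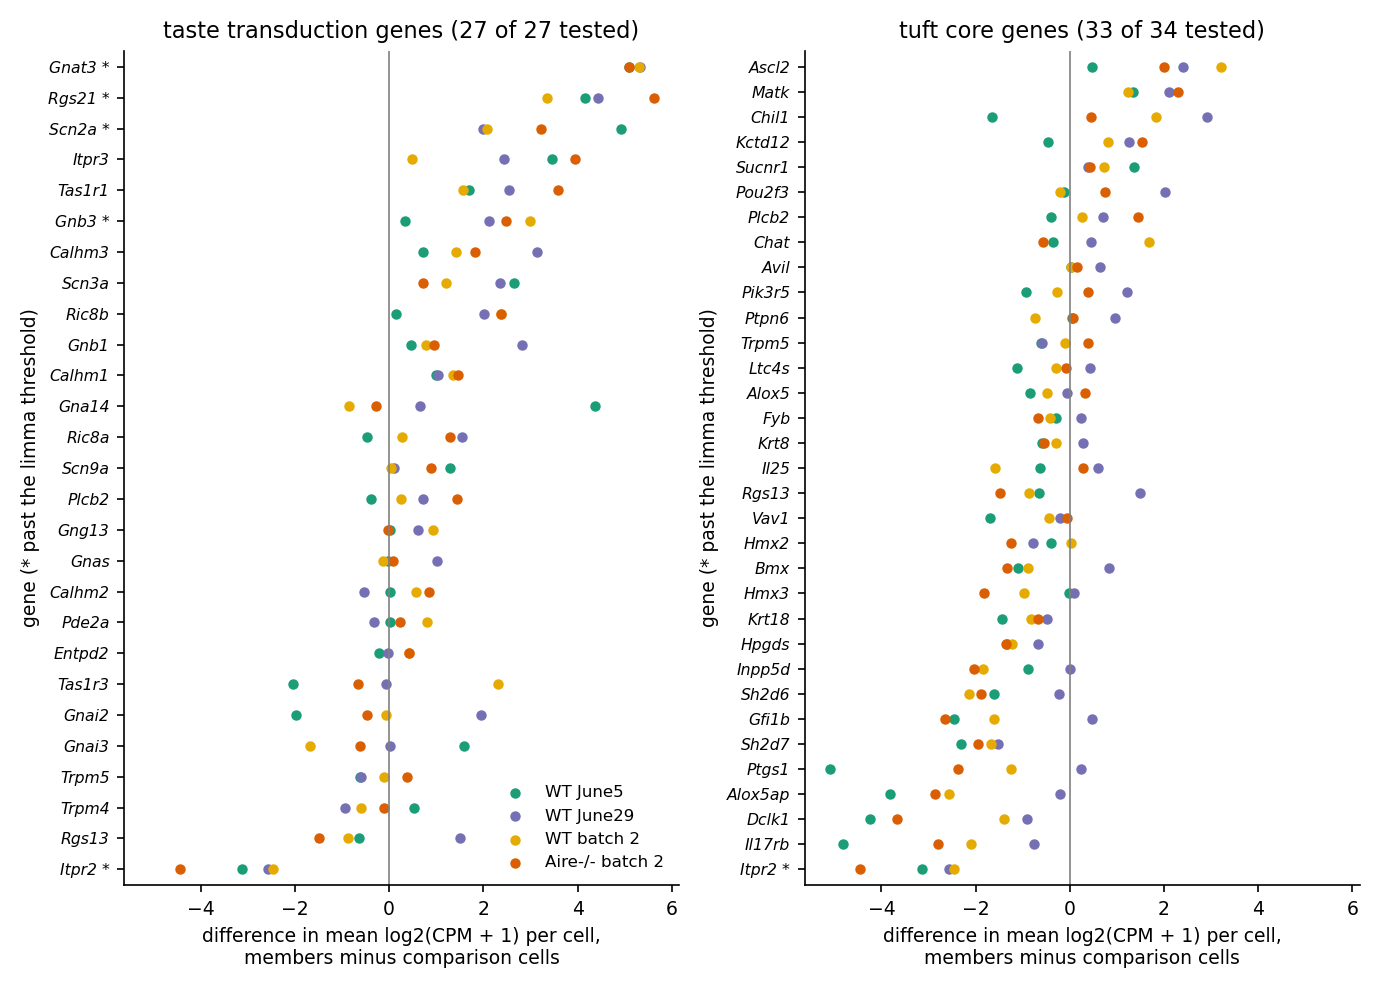
Difference in mean log2(CPM + 1) per cell, members minus comparison cells, for the tested genes of the taste transduction list (left) and the tuft core list (right), ordered by the average, with 1 point per set and a star at genes past the limma threshold, leaving out 1 tuft core gene. Gnat3 averages 5.20 and Itpr2, which is in both lists, -3.15, and 20 of 27 taste genes but 11 of 34 tuft core genes average above 0.

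The receptors that made a cell a member lie mostly in 1 stretch of the genome, chr6:131629823-133055816 in GRCm38, which holds 24 of the 35 Tas2r entries and 37 other annotated genes. Of those 37, 10 had enough reads to be tested and 3 were called higher, beside 0.257% of all genes. Some of the 10 had most of their reads in members (Gm44142 had 1434 reads there and 94 in comparison cells), so the filter on low counts could keep a gene through its reads in members, and among those not tested Gm8882 had 0 reads in members and 84 in comparison cells. The differences of the 10 are therefore not summarised, and the 3 calls are not read as a result about the stretch. These 2 genes are named after their values were seen. Tas2r142-ps5, a receptor pseudogene outside the naming rule, was positive in 5 of 8, 10 of 14, 11 of 21 and 14 of 26 members and in 2 of 13, 5 of 49, 2 of 29 and 4 of 40 comparison cells, with a difference of 4.23 (SE 0.47, limma adjusted p = 0.00188), and none of its 50-base stretches occurs in another gene. A630073D07Rik, a protein-coding gene, was positive in 91.3% of members against 47.3% and differed by 3.59 (SE 0.54, adjusted p = 0.00943). The pseudogene Gm18690 differed by 3.74 (SE 0.52, adjusted p = 0.00637), but 45.1% of its 50-base stretches also occur in other genes including Tas2r117, which the rule used, so reads of the receptor and of the pseudogene may not be told apart. The genes of the stretch share their place with the receptors the cells were selected on, and how far the authors' counting split reads between neighbours was not tested.

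A further group of genes called higher is best known from neurons. Of 20 tested genes in the neuronal-type list, 46 genes of synapses, axons and vesicles in all, 4 were higher and 0 lower, beside 0.257% and 0.0515% of all genes. Of the 20 differences 15 were positive (75%, against 63.7% over all genes), and the median was 0.93, against 0.13. The filter on low counts could keep a gene of this list too through its reads in members, so these values are a description only. The list and the markers Flrt3, Bex4 and Bex1 were chosen with earlier results on these cells known, so the direction is not independent evidence. Slitrk6, a transmembrane protein of neurite outgrowth, was positive in 7 of 8, 14 of 14, 20 of 21 and 25 of 26 members, with median levels of 416, 994, 341 and 913 CPM, against 11.8, 12.9, 241 and 6.74 CPM in comparison cells. Its difference was 3.54 (SE 0.55, limma adjusted p = 0.0107), with WT batch 2 the closest of the sets at 7.99 against 5.99. Nrxn3, a presynaptic adhesion protein, was positive in 43.5% of members against 7.63% and differed by 2.59 (SE 0.43, adjusted p = 0.0168).

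Flrt3, an adhesion and guidance protein, was positive in 4 of 8, 4 of 14, 11 of 21 and 12 of 26 members and in 0 of 13, 7 of 49, 6 of 29 and 4 of 40 comparison cells. Its difference was 2.56 (SE 0.47, limma adjusted p = 0.0322), and its call was lost without June29, WT batch 2 or the Aire-/- set, and without cells with haematopoietic markers (adjusted p up to 0.692 over all alternatives). Bex4, a small brain-expressed X-linked gene, was positive in 42.03% of members, 6.11% of comparison cells and none of the cells with 0 to 2 Tas2r genes (which allows up to 2.97%), and differed by 2.68 (SE 0.41, adjusted p = 0.0103). The Bex4 call held in 12 of 18 alternatives (limma adjusted p up to 0.346). Like that of Flrt3, it was lost without June29, WT batch 2 or the Aire-/- set, and without cells with haematopoietic markers. Bex1, of the same family, was positive in 23.2% against 6.87%, and its difference of 1.49 (SE 0.36, adjusted p = 0.13) did not pass. Of the 50-base stretches of Bex4 49.7% occur in other genes, Bex1 among them, so how the reads divide between the pair is uncertain. Vamp2, a vesicle fusion protein, differed by 1.12 (SE 0.53, adjusted p = 0.462) and Bex3 by 1.51 (SE 0.5, adjusted p = 0.282).

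Among the other genes called higher were regulators, a keratin and signalling genes. Ovol3, a zinc finger of the OVO-like family, was positive in 6 of 8, 10 of 14, 17 of 21 and 20 of 26 members and in 3 of 13, 14 of 49, 7 of 29 and 13 of 40 comparison cells, and differed by 4.30 (SE 0.52, limma adjusted p = 0.00262). Krt19, a keratin of simple epithelium, had medians of 1993, 1807, 1524 and 2355 CPM in members against 396, 459, 48.1 and 372 CPM, and differed by 3.29 (SE 0.42, adjusted p = 0.00327). The other keratins of tuft cells did not pass, with Krt8 at -0.29 (adjusted p = 0.739) and Krt18 at -0.86 (adjusted p = 0.31). Further named differences were 4.29 for Gm8113, 3.95 for Nrep, 3.45 for Cited2 (a transcriptional co-regulator), 3.32 for Plagl1 (an imprinted zinc finger), 3.29 for Slit2 (a secreted guidance protein), 3.27 for Bdnf (a neurotrophin) and 3.12 for Mgll (an endocannabinoid-degrading lipase). Of the 50-base stretches of Gm8113, 41% are shared with other genes. An entry without a gene name in the reference differed by 3.58. The remaining higher genes included Lpgat1, Crym, Pdlim3, Lipc, Chchd10 and, at 1.69, Ngb (neuroglobin), which was positive in 21.7% of members and 0.763% of comparison cells. Several called genes overlap exons of a gene on the opposite strand, namely Commd1 (3.03), 9130230N09Rik (2.67), Cracr2b (3.15), Bdnf, Chchd10, Nrxn3, Mgll, Plagl1 and Tnfaip8 among the higher and Adgrg6 and Ahcyl2 among the lower. Whether the authors' counting used strand is not given in the sources used here, so these are uncertain. Of the 50-base stretches 39.7% are shared with other genes in Cracr2b, 12.7% in Bdnf, 9.78% in Tnfaip8, 9.5% in Commd1 and 7.09% in Chchd10.

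In all 4 leave-one-outs 6 of the higher genes kept their call, namely Gnat3, Rgs21, Tas2r142-ps5, Ovol3, Gm8113 and Nrep. Of the lower genes it was Strip2. Among these genes only Gnat3 also kept its call in cells at or above the median depth of their set, and none kept it with no filter on low counts.

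Of the 7 lower genes, Adgrg6 differed most. This adhesion G protein-coupled receptor was positive in 2 of 8, 6 of 14, 6 of 21 and 7 of 26 members and in 12 of 13, 28 of 49, 20 of 29 and 30 of 40 comparison cells, a difference of -4.06 (SE 0.66, limma adjusted p = 0.0148). Strip2, a subunit of a phosphatase and kinase complex, had a median of 1.72, 1.77, 0 and 33.7 CPM in members against 494, 269, 109.4 and 432 CPM, and differed by -3.94 (SE 0.56, adjusted p = 0.00645). Beside Itpr2, the others were Pld1 (phospholipase D, -3.04), Sdc4 (a heparan sulfate proteoglycan, -3.03), Laptm5 (a lysosomal membrane protein of blood cells, -2.98) and Ahcyl2 (-2.76). Laptm5 was positive in 60.9% of members, 87.8% of comparison cells and 92.1% of cells with 0 to 2 Tas2r genes, so it was common in tuft cells outside the members.

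The tuft core list had a negative median difference, unlike the taste list. Of 34 tested core tuft genes 0 were called higher and 1, Itpr2, lower, beside 0.257% and 0.0515% of all genes. Of the differences 11 were positive (32.4%, against 63.7% over all genes) and 23 negative, and the median was -0.35 against 0.13 over all genes. Itpr2, Trpm5, Plcb2 and Rgs13 are in both lists. The list summed to 24600, 33790, 28260 and 31750 CPM in members and 52900, 37050, 35950 and 42390 CPM in comparison cells of June5, June29, WT batch 2 and the Aire-/- set, so the sum was smaller for members in each set. Among its most abundant genes Krt8 and Trpm5 have been given, and Avil, an actin-severing protein, differed by 0.21 (SE 0.28, limma adjusted p = 0.839). Dclk1, a kinase used as a tuft marker, was positive in 5 of 8, 12 of 14, 14 of 21 and 17 of 26 members and in 12 of 13, 45 of 49, 23 of 29 and 36 of 40 comparison cells. Its difference of -2.56 (adjusted p = 0.0969) did not pass, and neither did that of Il17rb, the Il25 receptor (-2.61, adjusted p = 0.117). Dclk1 and Il17rb are named after their values were seen.

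Lists for other functions of tuft cells, here and in the next paragraph, held 0 calls. Over all genes 0.257% were called higher and 0.0515% lower, so 0 calls in a short list says little about that list. For eicosanoid synthesis, through which tuft cells make leukotrienes and prostaglandins, 0 of 13 genes were called, 3 differences were positive and the median was -0.27. Its abundant members were Alox5 (-0.27, limma adjusted p = 0.852), Alox5ap (-2.36, adjusted p = 0.116), Ptgs1 (-2.12, adjusted p = 0.275) and Hpgds (-1.15, adjusted p = 0.404). For cytokines and their receptors 0 of 11 were called, 5 were positive and the median was -0.26. Il10, an anti-inflammatory cytokine, was positive in 81.2% of members against 54.96% and differed by 2.07 (adjusted p = 0.155), while Il25, the reporter's gene, differed by -0.33 (adjusted p = 0.869). Of 15 tuft lineage regulators 0 were called, with a median of -0.08, and Pou2f3 differed by 0.61 (SE 0.5, adjusted p = 0.7) and Spib, an ETS factor, by -1.54 (SE 0.61, adjusted p = 0.39).

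Acetylcholine genes, of which Chat makes the transmitter, had 0 of 6 called, and Chat differed by 0.3 (SE 0.52, limma adjusted p = 0.884). Of 5 tested receptor transport genes, some of which carry taste and odorant receptors to the cell surface, 0 were called, with Rtp4 at 1.12 (SE 0.42, adjusted p = 0.364) and Reep5 at 0.26 (SE 0.4, adjusted p = 0.867). MHC class II genes had 0 of 9 called, 1 positive difference and a median of -0.41, led by Cd74 at 0.13 and H2-Ab1 at -0.06. MHC class I genes had 0 of 15 called and a median of 0.07, and immediate early genes, which respond to dissociation, 0 of 17 and a median of 0.01. Gp2, Nmur1 and Unc5b, which mark another state of these tuft cells, had 0 of 3 called and differed by -1.37, -0.91 and -0.11, and Nmur1, the neuromedin U receptor, was positive in 0 of 69 members, which allows a share of up to 4.35%, and in 12.2% of comparison cells (adjusted p = 0.0863).

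Markers of other cell types showed 1 gene near the threshold. Themis, a T cell signalling gene, was positive in 14 of 69 members (20.3%) and 3 comparison cells (2.29%), and differed by 1.42 (SE 0.29, limma adjusted p = 0.062), which did not pass. The member sets had 1 of 8, 4 of 14, 5 of 21 and 4 of 26 positive cells. Lck, the T cell kinase of the same thymocyte list, was positive in 4.35% against 9.16%. Ptprc, the gene of the CD45 used as a negative gate, was positive in 5.80% of members against 29.8%, a difference of -1.53 (adjusted p = 0.219). Lck and Ptprc are named after their values were seen.

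Members differed among themselves, and the shares of cells positive for the leading genes differed with the number of Tas2r genes inside the class. In cells with 10 to 12, 13 to 16 and 17 to 24 Tas2r genes (23, 25 and 21 cells), Rgs21 was positive in 47.8%, 68% and 95.2%, Ovol3 in 47.8%, 84% and 100%, and Krt19 in 78.3%, 100% and 100%. Gnat3 was positive in 100% of all 3 groups, against 23.3%, 53.5%, 59% and 77.1% in cells with 0, 1 to 2, 3 to 5 and 6 to 9 Tas2r genes (30, 71, 83 and 48 cells). Itpr2 ran the other way, from 83.3% at 6 to 9 genes to 65.2%, 60% and 38.1% in the member groups, while Trpm5 stayed between 96.7% and 100% in all 7 groups. The shares pool the cells of 4 sets, which differ in depth, and carry no test.

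**Figure D5:**
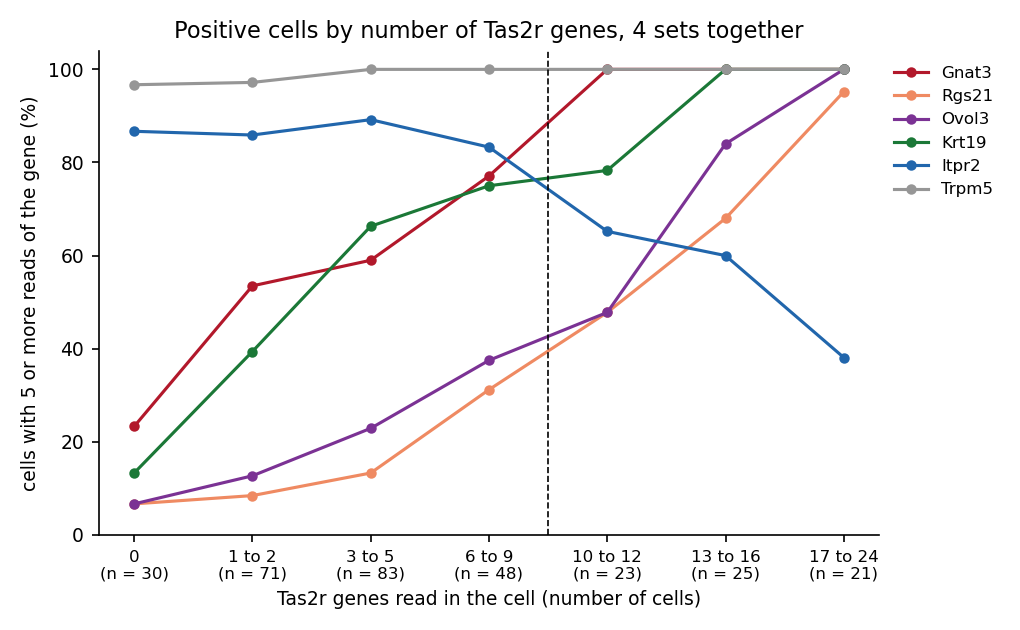
Share of cells with 5 or more reads of a gene (percent) against the number of Tas2r genes with a read, in 7 bins of 21 to 83 cells pooled over the 4 sets, with a dashed line at the border of membership. The shares of Gnat3, Rgs21, Ovol3 and Krt19 are larger at the right than at the left, that of Itpr2 is smallest in the last bin at 38.1%, and that of Trpm5 lies between 96.7% and 100%.

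Cells positive for several leading genes at once were counted. Gnat3, Rgs21, Ovol3, Nrep and Krt19, chosen for this count after their values were seen, were all positive in 39 of 69 members (56.5%), 11 comparison cells (8.40%) and 1 cell with 0 to 2 Tas2r genes (0.99%). Each was chosen as a gene called higher in members, so a larger share there follows in part from the choice. Whether these genes go together beyond that was not tested. Over all 301 cells, the 10 genes whose CPM was most like the number of Tas2r genes, by Spearman's rho within a set averaged over the 4 sets, were Gm18690 (0.664), Gnat3 (0.638), Gnb3 (0.568), Slitrk6 (0.555), A630073D07Rik (0.553), Krt19 (0.539), Eya1 (0.535), Commd1 (0.535), Bex4 (0.522) and Tas2r142-ps5 (0.51). Eya1, a transcriptional co-activator, is the one of these that limma did not call. Strip2 was at the other end with -0.391. The number of Tas2r genes also defined the members, and cells of a set share library preparation and differ in depth, so these are descriptions.

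The rule of naming genes from the edgeR fit also gave genes that did not pass there. Beside Gnat3, Tas2r142-ps5, Bex4 and Commd1, it named Klhl5, with a log2 fold of 4.08 in the summed reads, where a single member of June29 held 37.2% of the members' reads. Among those lower it named Tdrp and Cpe, which had no positive member, Cdhr2 (-2.03), Tmem176a (-1.01) and Trak1 (-1.40). Cdhr2, a brush border cadherin, was positive in 2 of 8, 3 of 14, 7 of 21 and 3 of 26 members and 12 of 13, 17 of 49, 13 of 29 and 17 of 40 comparison cells.

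The Aire-/- set can be compared with the WT sets only as 1 pool against others, so no test was made. The difference of Gnat3 between members and comparison cells was 5.09, 5.33 and 5.30 in the WT sets and 5.09 in the Aire-/- set. For Rgs21 it was 4.16, 4.43 and 3.35 against 5.62, and for Itpr2 -3.13, -2.57 and -2.46 against -4.45. The Aire-/- set thus lay beyond the 3 WT sets for Rgs21 and Itpr2 and at their lowest value for Gnat3.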

How the data were processed

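Smart-seq2 libraries of sorted thymic cells were analysed from deposited tables of raw counts (reads of a gene in a well), in 1 table for WT and 1 for Aire-/- wells. Per the submitters' processing notes the tools were STAR, Subread, featureCounts 1.5.3 and R 3.4.0 with the genome build GRCm38, and the annotation is not given in the sources used here. A deposited table of a score per gene and well entered no value and served only, by its list of wells, as an alternative choice of cells. Of 48887 entries, 48435 had a gene name in the reference and 92 were ERCC spike-ins, which were left out of all totals.

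The members and gene lists were chosen with earlier results of these data known. Counts were added up within each set and class (8 sums) and tested with edgeR 4.0.16 (TMM, quasi-likelihood, set as block), with DESeq2 1.42.0 as an alternative. limma 3.58.1 (trend) on mean log2(CPM + 1) per set and class, with set as block and a pseudocount of 1, was added after the data were seen. Genes tested were those that passed edgeR's filter on low counts. p-values were Benjamini-Hochberg adjusted over all genes tested, with a threshold of 0.05, and the steps were tested on simulated data. Cells are not replicates, and no p-value was made from them.

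Named were the markers given for these cells other than a Tas2r gene, the genes past the threshold, the list members past it, up to 4 abundant members of each list, the genes most like the number of Tas2r genes, and, where edgeR called fewer than 5, the genes of smallest unadjusted p with the same sign in all 4 sets. Gene positions and shared 50-base stretches came from GENCODE M21 on GRCm38, and R 4.3.3, Python 3.11.15 and pandas 2.3.3 were used. Replicate numbers in the labels are well numbers and pair no samples. Thinning used the 10th percentile of gene reads, 231697, and left out 30 cells. Alternatives were other size factors, no filter, no block, leaving out each set, other thresholds and comparison cells, and other choices of cells. The values of 1 tuft core gene are not reported here, but it stayed in the totals of its list.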

Additional observations from a re-analysis of the deposited data

Results flagged for a closer look

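With 4 sets, a value is listed where 1 set stands far from the other three, which chance alone flags in about 1 in 20 groups. The Ovol3 difference between members and comparison cells was 3.0 in June29, the smallest of the 4 sets. The Ngb difference was 2.06 in June5. Members of June29 had median gene reads of 1506640, and members of June5 had a median mitochondrial share of 9.19%.

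Reads of the same genes were also present in the 50-cell wells, which entered no comparison. The WT 50-cell well had reads of 17 Tas2r genes and 2222 CPM of Gnat3, and the Aire-/- 50-cell well had reads of 18 Tas2r genes. The no-cell well that was analysed had 2 Tas2r genes with a read each among 9892 gene reads.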

How the results depend on the processing

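All 35 higher and 7 lower genes kept their sign in all 18 alternatives, which reuse the same cells, but the share of tested genes that limma called moved. Higher and lower calls were 0% and 0% with no filter on low counts and 1.07% and 0.236% with June5 and June29 merged. They were 0.805% and 0.271% with batch 2 split by the submitters' Batch number of each well. They were 0.518% and 0.108% with 5 reads needed for a Tas2r gene, and 1.12% and 0.168% against cells with 0 to 9 Tas2r genes. With classes taken from thinned reads they were 0.14% and 0.0349%. In cells at or above the median depth of their set they were 0.00806% (1 gene) and 0%. Without cells with haematopoietic markers they were 0.158% and 0.00792% (20 genes and 1). Leaving out 1 set gave 0.0724% to 0.489% higher and 0.00724% to 0.0709% lower. With 12 or more Tas2r genes required 0.0829% were lower. Without the replicate block limma called 35 genes higher (0.257%) and 4 lower (0.0294%), of which 33 and 4 were the same genes, and edgeR called 0 and 0. Other settings stayed within 1.5 times, among them 25 and 7 genes with thinned reads. In the summed reads DESeq2 called 1.65% higher and 2.98% lower. With batch 2 split by the submitters' Batch number, edgeR called 0.00847% (1 gene) higher. The cause of these moves was not tested, except that the settings with deeper cells only, without haematopoietic markers or without a set hold fewer cells.

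The number of members limits shares: 0 of 69 cells with 5 or more reads allows up to 4.35% of such cells, which bounds cells with 5 or more reads and not cells that express the gene. The share of members in a set moved by less than its interval under thinned reads and 5-read counts.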

Other observations

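Wells that entered no comparison gave these values. The WT 50-cell well had 392.8 CPM of Rgs21, 700.9 CPM of Ovol3 and 1720 CPM of Krt19, and the Aire-/- 50-cell well had 18.5, 161.2 and 869.1 CPM of these genes and 292.8 CPM of Gnat3. The no-cell well with 9892 gene reads had 10 reads of Gnat3 (1011 CPM) and 6 of Krt19 (606.6 CPM), and none of Rgs21, Ovol3, Bex4 or Flrt3. The median comparison cell over all sets had 158.8 CPM of Gnat3 and 397.5 CPM of Krt19. The other 2 no-cell wells were not analysed here.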
